A study of Mus musculus with 6 samples.

Results

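Beko is a mouse T-lineage leukaemia line, and in it 121 genes differed by at least 0.8 on the log2 scale (1.74-fold) between the γ-secretase inhibitor DAPT and its vehicle DMSO while differing by less than 0.3 (1.23-fold) when dominant-negative Mastermind was switched on. Of these genes, 72 were higher with DAPT and 49 were lower. They were drawn from 12145 genes that reached a log2 level of 5.54 on at least 1 array, out of 22414 genes on the array. The genes were chosen by their DAPT and DNMAML-ER differences, so these values are given below as a description with no test.

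γ-Secretase is the membrane protease that cuts Notch receptors and releases their intracellular part, which enters the nucleus, binds RBPJ and recruits Mastermind to activate target genes. The enzyme also cuts many other membrane proteins, so an inhibitor such as DAPT can act on more than Notch. DNMAML is a truncated Mastermind that occupies the nuclear Notch complex without activating it. Setting DAPT against DNMAML therefore asks which DAPT differences are not matched when DNMAML is switched on. The pairs also differ in line, drug, vehicle and time, which cannot be told apart here from the step that is blocked. How fully DNMAML blocked Notch was not checked.

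There were 6 conditions with 1 Affymetrix array each, all from total RNA of Beko cells. Parental cells received 10 μM DAPT or DMSO for 24 h. Cells infected with a DNMAML-ER fusion, and cells infected with a Notch1-ER fusion, were selected and then received 0.75 μg/mL hydroxytamoxifen (OHT), which switches on the oestrogen receptor (ER) part of the fusion, or ethanol for 48 h. The sources used here do not state the promoter of the fusions, whether a line was a pool or a clone, or any batch. With 1 array per condition, no value has a replicate error and no comparison can be tested. The arrays' medians over all 22414 genes lay between 5.43 and 5.61.

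The files name each gene by a mouse Ensembl ID only, and 0 of the 22414 IDs could be paired with a symbol in the reference table used here. No gene is therefore given a name, role, pathway, promoter or protein, and the lineage markers of the cells could not be checked. The 2 genes with the largest difference in each direction are printed by ID, and others are given by their rank in size.

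The chosen genes lay at the edge of a broad distribution. Over the 12145 genes, 378 differed by at least 0.8 between DAPT and DMSO (3.11%), 250 of them higher (2.06%) and 128 lower (1.05%). For 235 of the 378, the DNMAML-ER difference was at least 0.3 in the same direction, for 22 it was at least 0.3 in the opposite direction, and for the 121 it was under 0.3. Over all genes a DNMAML-ER difference under 0.3 was the usual case, found in 9729 (80.1%). A DNMAML-ER difference of at least 0.8 was found in 193 genes (1.59%), and 29 of them differed by under 0.3 with DAPT.

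**Figure D1:**
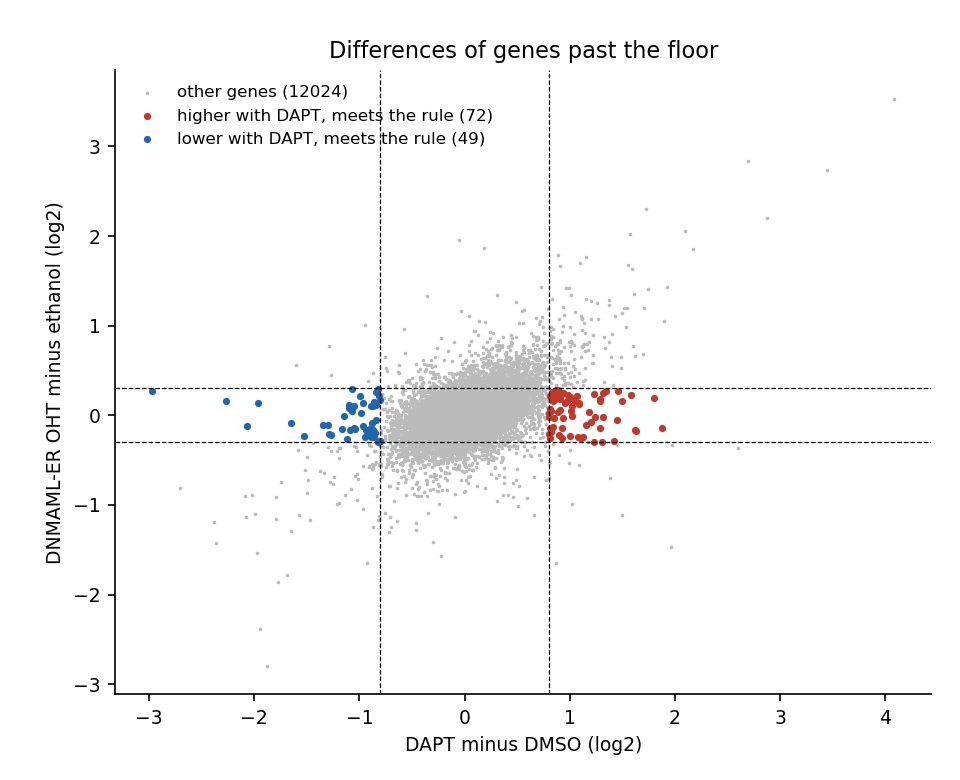
Each point is a gene past the floor, with its DAPT minus DMSO difference on the x axis and its DNMAML-ER OHT minus ethanol difference on the y axis, both in log2. Dashed lines mark the thresholds of 0.8 and 0.3; the 72 red and 49 blue genes fill the 2 outer bands between the horizontal lines, and the lower genes reach further from 0 (-2.97) than the higher genes (1.88).

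The 72 higher genes had a median DAPT difference of 0.98 and ran from 0.80 to 1.88. In the 49 lower genes the median was -0.97, and values ran from -0.80 to -2.97. At 2-fold or more, 34 of the higher and 21 of the lower genes were left. Their DNMAML-ER differences had medians of 0.12 and -0.11, and 44 of the 72 and 30 of the 49 shared the sign of the DAPT difference. A shared sign was also found in 8258 of all 12145 genes, a larger share than in the chosen genes. The limit of 0.3 had itself removed 235 genes with a shared sign and 22 with opposite signs, so the rule favoured a smaller share. Among all genes past the floor, the median DNMAML-ER difference was 0.096 in those higher with DAPT and -0.080 in those lower. The threshold was a limit on size, and medians slightly off 0 on the DAPT side were not particular to the chosen genes.

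Many of the 121 genes sat close to a threshold. The 3 nearest inside the DAPT limit had sizes of 0.801, 0.801 and 0.802, and the 3 nearest outside had 0.796, 0.793 and 0.793. There were 46 genes with a DAPT difference between 0.8 and 0.9, and 88 further genes between 0.7 and 0.8 that otherwise met the rule. On the DNMAML-ER side the nearest inside had sizes of 0.299, 0.298 and 0.293, and the nearest outside 0.301, 0.305 and 0.307. Of the 121 genes, 22 had a DNMAML-ER difference under 0.1 in size and 49 one of 0.2 or more.

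The genes were also expressed at lower levels than most. The median of the mean log2 level was 6.63 for the higher and 6.26 for the lower genes, against 7.64 over all 12145 genes. Both the DMSO and the DAPT level reached 5.54 for 51 of the 72 higher genes and 24 of the 49 lower genes, together 62.0%, against 87.3% of all genes past the floor. In 41 genes (33.9%) only 1 of those levels did, against 7.46% of all. In 5 (4.13%) neither did, against 5.29% of all, so that these 5 entered through a fusion-line array. The gene ranked 16 among the higher genes shows this last case, with levels of 2.76 with DMSO and 4.05 with DAPT. Its levels with ethanol and OHT were 6.96 and 7.12 in DNMAML-ER cells and 7.21 and 6.15 in Notch1-ER cells.

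The largest positive difference belonged to ENSMUSG00000001865. DMSO gave a log2 level of 5.54 and DAPT of 7.42. DNMAML-ER cells had 5.67 with ethanol and 5.53 with OHT, and Notch1-ER cells 6.09 and 5.33. The DAPT array alone was high, 1.33 above the next array, and the other 5 lay between 5.33 and 6.09. The DAPT level was 3.68-fold that with DMSO, which lay within rounding of the floor, while the DNMAML-ER difference was -0.14 and the Notch1-ER difference -0.76.

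ENSMUSG00000076745 came second among the higher genes, but its arrays were ordered differently. Its level was 7.53 with DMSO and 9.33 with DAPT, a 3.48-fold difference, and 8.40, 8.59, 8.43 and 8.44 on the DNMAML-ER ethanol, DNMAML-ER OHT, Notch1-ER ethanol and Notch1-ER OHT arrays. The fusion-line arrays all lay about midway, below DAPT by at least 0.73 and above DMSO by at least 0.88. OHT made a difference of 0.19 in the DNMAML-ER line and of 0.00 in the Notch1-ER line.

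The largest negative difference, in ENSMUSG00000072929, rested on a high DMSO array. DMSO gave 9.02 and DAPT 6.05, with ethanol and OHT levels of 6.01 and 6.28 in DNMAML-ER cells and of 6.09 and 5.74 in Notch1-ER cells. The 4 fusion-line arrays, ethanol ones included, were all at the DAPT level, and DMSO stood 2.74 above the next array. DAPT was 7.84-fold below DMSO, and DMSO differed about as widely from every other array.

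ENSMUSG00000091326, the second of the lower genes, also rested on a high DMSO array, at a higher level. Its level was 12.14 with DMSO, 9.88 with DAPT, 10.20 and 10.36 in DNMAML-ER cells with ethanol and OHT, and 10.53 and 9.01 in Notch1-ER cells. DMSO again lay above the other 5, by 1.61, but the fusion-line arrays lay on both sides of the DAPT level. DAPT was 4.81-fold below DMSO, and OHT in the Notch1-ER line was 2.86-fold below ethanol.

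As these 4 genes show, the 121 genes differed among themselves in where the fusion-line arrays lay. Each gene was given a place, the mean of its 4 fusion-line arrays minus DMSO, divided by DAPT minus DMSO. A place of 0 puts the fusion lines at the DMSO level, and a place of 1 puts them at the DAPT level. Because DMSO and DAPT also chose the genes, places are descriptions. The median place was 0.31 for the higher genes and 0.41 for the lower genes, with quartiles of 0.00 and 0.81 and of -0.07 and 0.75. Of the 121 genes, 52 had a place of 0.25 or less, 36 lay between, and 33 had a place of 0.75 or more. These medians moved with the scaling of the arrays, and after a second quantile normalization they were 0.14 and 0.63.

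**Figure D2:**
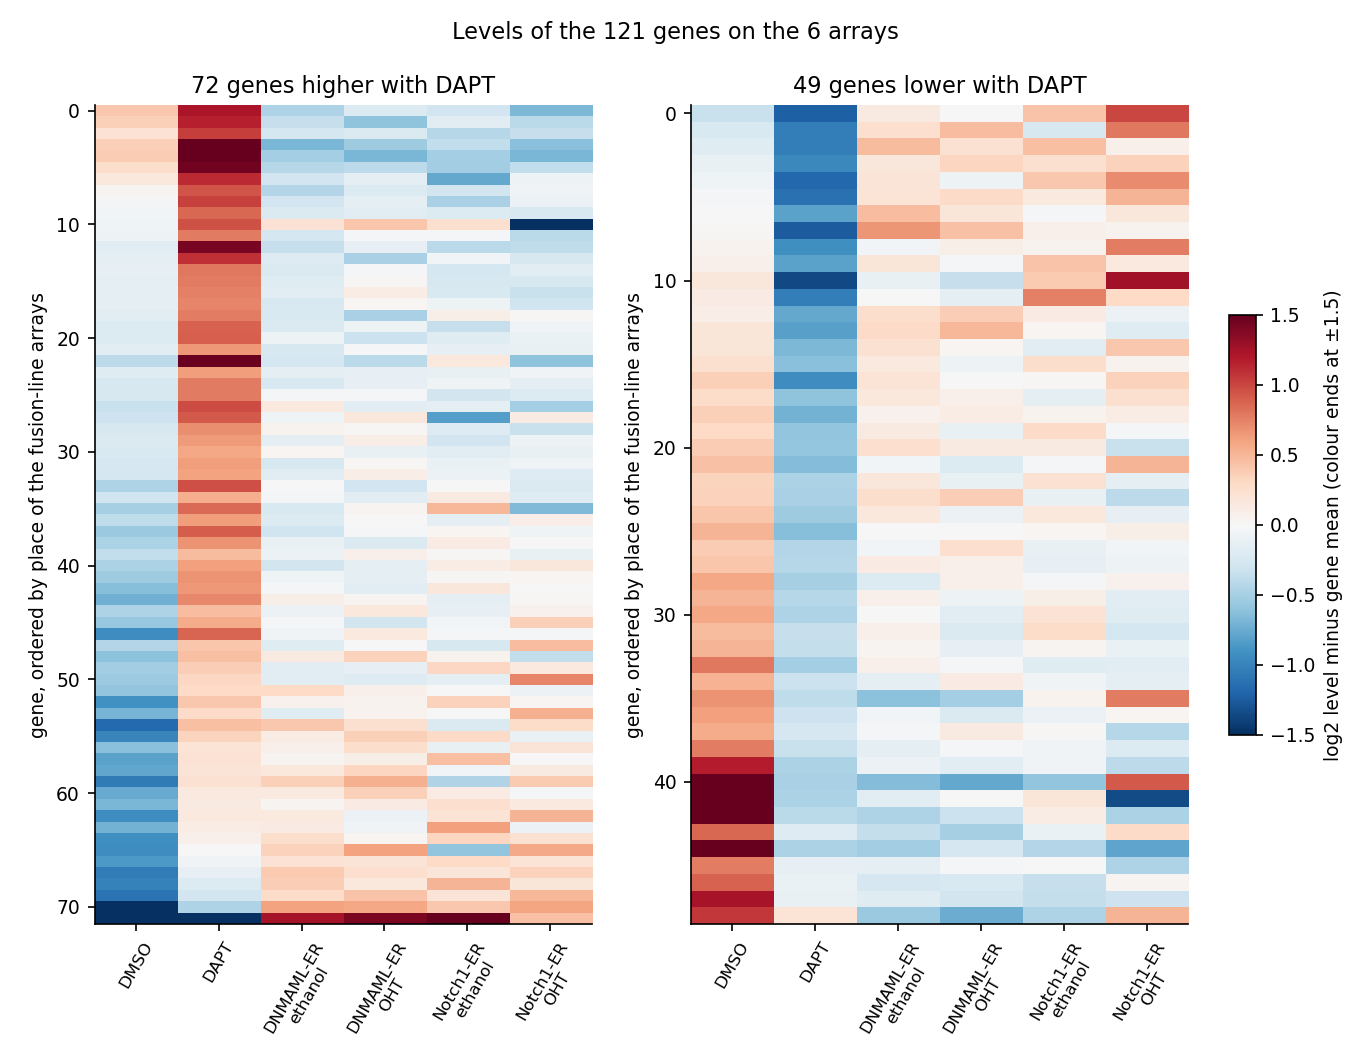
Rows are the 72 higher (left) and 49 lower (right) genes ordered by place, columns are the 6 arrays, and colour is the log2 level minus the gene's mean over the arrays. From top to bottom the array that stands out changes from DAPT to DMSO in both panels.

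For 59 genes the DAPT array was the one that stood apart, by at least 0.5 beyond the range of the other 5 arrays. Over all 12145 genes this was so in 414 (3.41%). The 59 comprised 40 higher and 19 lower genes. In the 40 higher genes the median levels were 6.04 with DMSO, 6.10 and 6.30 in DNMAML-ER cells with ethanol and OHT, 6.17 and 6.20 in Notch1-ER cells, and 7.21 with DAPT. In the 19 lower genes they were 6.65 with DMSO, 6.59 and 6.62 in DNMAML-ER cells, 7.21 and 6.81 in Notch1-ER cells, and 5.49 with DAPT. For this set the median place was -0.03. The choice of the set fixed places below 1, and the median does not describe every gene. In the gene ranked 63 among the higher genes the place was -0.98, with every fusion-line array below DMSO. Among the genes of this set with every array at or above the floor, the widest gap was 1.10, in the gene ranked 13 among the lower genes. Its level was 7.72 with DAPT, 8.83 with DMSO, 9.09 and 8.82 in DNMAML-ER cells with ethanol and OHT, and 9.30 and 9.61 in Notch1-ER cells.

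For 34 genes it was the DMSO array that stood apart by at least 0.5, where 135 of all genes (1.11%) did so. These were 21 genes with DMSO lowest (0.807% of all genes) and 13 with DMSO highest (0.305%). In the 21 higher genes the median level was 6.41 with DMSO, 7.60 with DAPT and between 7.69 and 7.87 on the fusion-line arrays. In the 13 lower genes it was 6.57 with DMSO, 5.29 with DAPT and between 5.50 and 5.63 on the fusion-line arrays. Their median places were 1.00 and 0.94, where the choice of the set fixed places above 0. Both ethanol arrays, which received neither DAPT nor OHT, were within 0.5 of the DAPT level in 21 of the 34 genes, and in 13 at least 1 of them was further away. Single places ran from 0.50 to 3.19, so the medians do not describe every gene. Among the 5 lower genes with the largest differences, DMSO stood apart in all 5, and among the 5 such higher genes in 2. DAPT stood apart in 4 of these higher genes and in 0 of the lower ones.

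In 2 higher genes, ENSMUSG00000076745 among them, both arrays stood apart, 1 on each side, and in 30 genes neither did. The gap of 0.5 was chosen after the levels had been seen.

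**Figure D3:**
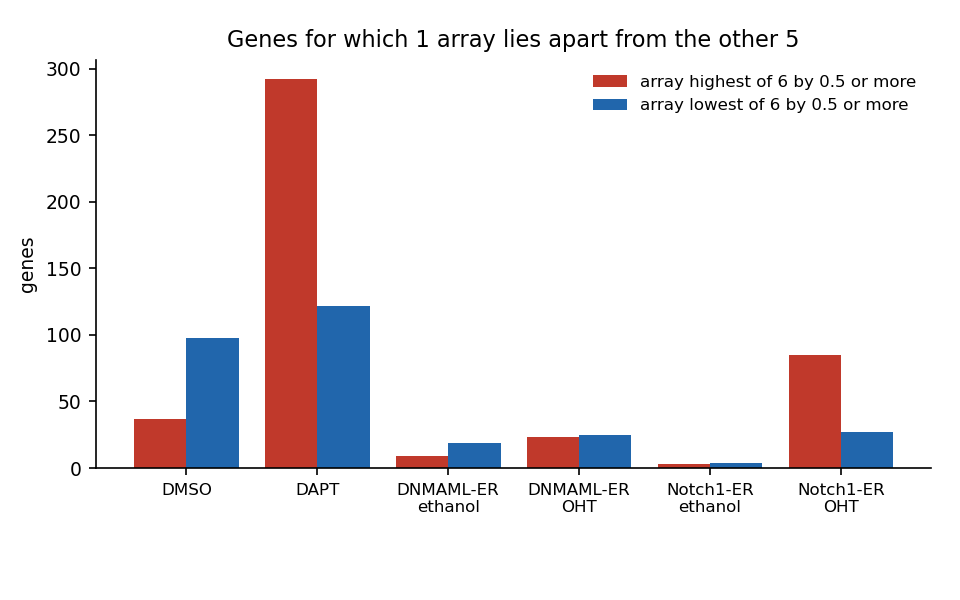
Bars count, over the 12145 genes and for each array on the x axis, the genes for which it is the highest (red) or lowest (blue) of the 6 by at least 0.5 log2. DAPT leads with 292 and 122 genes, and DMSO has 37 and 98, while the ethanol arrays of the fusion lines have 28 in all for DNMAML-ER and 7 for Notch1-ER.

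The genes that differed in the same direction with DNMAML-ER were arranged in another way. Among those 235 genes, the DMSO array stood apart in 13 (5.53%), against 34 of the 121 (28.1%). The DAPT array stood apart in 92 of the 235 (39.1%) and in 59 of the 121 (48.8%). A place of 0.75 or more was found in 15 of the 235 (6.38%) and 33 of the 121 (27.3%). In the 22 genes with an opposite DNMAML-ER difference these shares were larger than in the 121, with DMSO apart in 12 (54.5%) and a place of 0.75 or more in 11 (50.0%), so they are not particular to the 121 genes. With the ethanol arrays alone, which received neither DAPT nor OHT, the median place was -0.05 in the 235 genes, 0.33 in the 121 and 0.82 in the 22. DNMAML-ER cells carry the inhibitory fusion, and whether it was inactive without OHT was not checked. All 3 sets share the DMSO and DAPT arrays and were split by the DNMAML-ER arrays, so the contrast is a description.

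**Figure D4:**
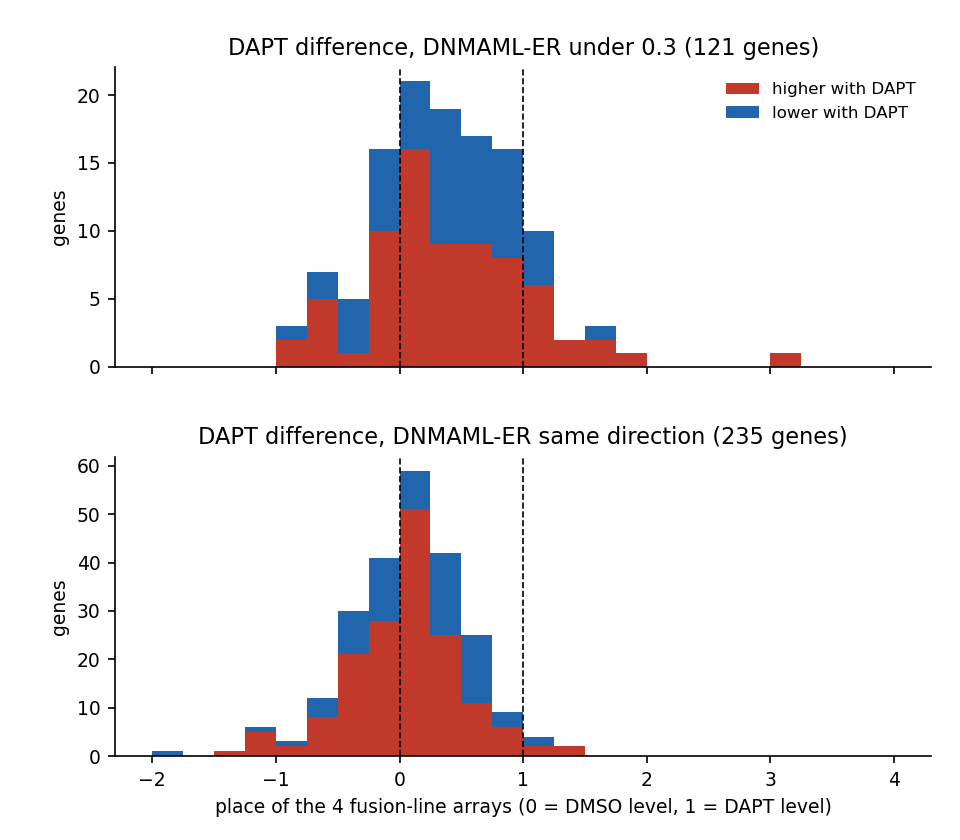
Histograms of the place of the 4 fusion-line arrays, with 0 at the DMSO level and 1 at the DAPT level, for the 121 genes (top) and the 235 genes with a DNMAML-ER difference in the same direction (bottom), stacked by direction of the DAPT difference. In the top histogram 31 genes lie under 0, 73 from 0 to 1 and 17 over 1. The medians are 0.37 in the top and 0.09 in the bottom histogram.

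The vehicle arrays of the fusion lines differed from DMSO in the direction of DAPT in many of the 121 genes. The DNMAML-ER ethanol array was at least 0.8 from DMSO on the DAPT side in 32 genes, against 301 of all 12145 (2.48%), and on the other side in 3, against 169 (1.39%). The Notch1-ER ethanol array was so in 30 genes, against 274 of all (2.26%), and in 2, against 163 (1.34%). The DMSO array enters both the choice of the genes and these counts. In the 235 genes the corresponding counts were 17 and 31 for DNMAML-ER and 17 and 20 for Notch1-ER. In the 22 genes with an opposite DNMAML-ER difference they were 18 and 0, and 12 and 1. The DNMAML-ER ethanol array also helped to split these sets, so the rule shaped the contrast between its counts. The parental and fusion-line arrays differ in line, vehicle and time, and these cannot be told apart. The ethanol arrays differed from each other by at least 0.5 in 10 of the 121 genes (8.26%), against 228 of all genes (1.88%). This was so in 23 of the 235 genes (9.79%) and 5 of the 22 (22.7%), so it is not particular to the 121.

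On either side of all 5 other arrays, by any margin, DAPT was the extreme array in 90 of the 121 genes, 52 highest and 38 lowest. DAPT was however the extreme array in 7155 of all 12145 genes (58.9%), 3553 highest (29.3%) and 3602 lowest (29.7%). Over all 22414 genes on the array, DAPT also had the lowest median, 5.43. Over the 12145 genes past the floor, the median DAPT minus DMSO difference was 0.02.

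The Notch1-ER pair took no part in choosing the genes other than through the floor, and without its arrays in the floor 120 genes met the rule. Notch1-ER supplies Notch activity, the opposite manipulation to DAPT. The medians of the 121 genes lay near 0. The median Notch1-ER difference was -0.01 in the 72 higher genes, with 36 above and 36 below 0, and 0.02 in the 49 lower genes, with 25 above and 24 below. Over all genes it was -0.01. In the genes with a DNMAML-ER difference in the same direction as DAPT it was -0.06 in the 162 higher and 0.18 in the 73 lower genes.

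Single genes differed more. An absolute Notch1-ER difference of 0.5 or more was found in 24 of the 121 genes (19.8%), against 453 of all 12145 (3.73%). Of these 24, 16 were higher with OHT (2.34% of all genes) and 8 lower (1.39%). In 14 the direction was opposite to that of DAPT (58.3%) and in 10 it was the same, a split near that of all genes, where 249 of the 453 were opposite (55.0%). In the 235 genes, 56 reached 0.5 (23.8%), 38 of them opposite to DAPT (67.9%) and 18 the same. Among all genes the share was larger at low levels, at 8.30% where the mean level was under the floor, 4.24% from there to 8 and 2.31% at 8 or more. In the 121 genes it was 5 of 29, 15 of 64 and 4 of 28 in the same classes, above the background in each.

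**Figure D5:**
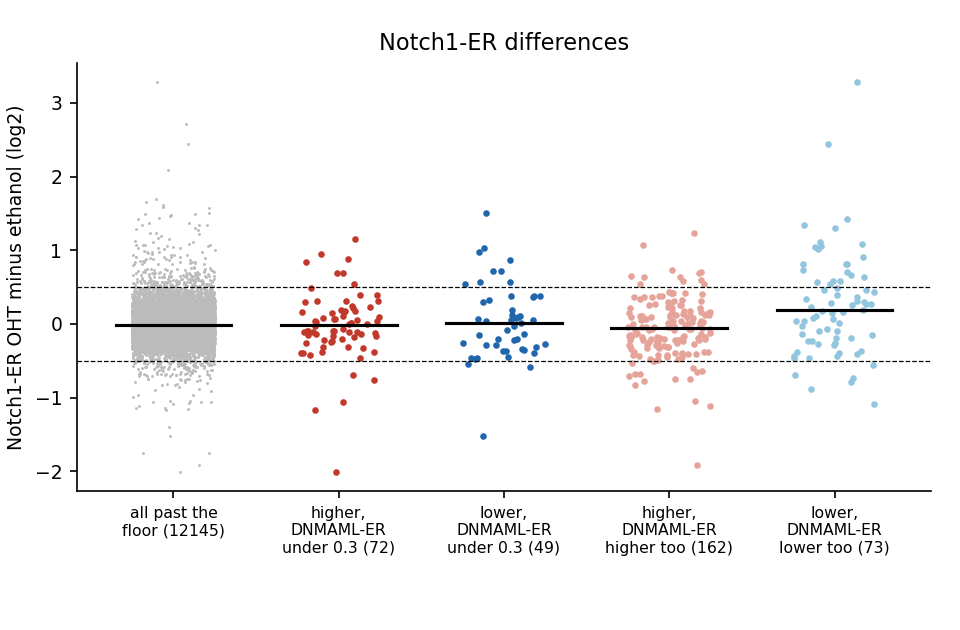
Points are genes and black bars are medians of the Notch1-ER OHT minus ethanol difference (log2) in all genes, in the 72 higher and 49 lower genes, and in the 162 and 73 genes with a DNMAML-ER difference in the same direction as DAPT. Dashed lines mark 0.5 in size; the medians of the 72 and 49 genes are -0.01 and 0.02, and their points spread on both sides.

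Some of the genes with large Notch1-ER differences went opposite to DAPT. The gene ranked 3 among the lower genes had a level of 7.89 with DMSO and 5.83 with DAPT, 5.67 and 5.55 in DNMAML-ER cells with ethanol and OHT, and 5.72 and 7.23 in Notch1-ER cells. It was high on the DMSO and Notch1-ER OHT arrays and low on the other 4, and its Notch1-ER difference of 1.51 was the highest of the 121 genes. The gene ranked 6 among the lower genes was 7.45 with DMSO, 5.92 with DAPT, 7.17 and 6.93 in DNMAML-ER cells, and 7.68 and 8.55 in Notch1-ER cells, a difference of 0.87. Here DAPT was the lowest array, and the DNMAML-ER OHT array came next. The lowest Notch1-ER difference was -2.01, in the gene ranked 33 among the higher genes, which was 9.80 with DMSO, 10.81 with DAPT, 10.08 and 10.28 in DNMAML-ER cells, and 10.10 and 8.10 in Notch1-ER cells. That gene stood out more by the Notch1-ER OHT array than by DAPT.

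Other genes went the same way as with DAPT. ENSMUSG00000091326, lower with DAPT, also had a negative Notch1-ER difference, of -1.52. The gene ranked 39 among the higher genes had levels of 6.87 with DMSO, 7.81 with DAPT, 8.15 and 8.40 in DNMAML-ER cells, and 7.21 and 8.37 in Notch1-ER cells, a difference of 1.16. DMSO and the Notch1-ER ethanol array were its lowest arrays.

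Which genes met the rule depended on the scaling of the arrays. Of the 121 genes, 86 still met it after a second quantile normalization and 98 after cyclic loess, so 35 and 23 were lost. ENSMUSG00000072929 was among those lost in the first case, with a DNMAML-ER difference of 0.301, just past the limit of 0.3. The excess of higher genes held under each rescaling but not without the floor. After the second quantile normalization 66 genes were higher and 39 lower, and after cyclic loess 81 and 41. With each pair centred on its own median difference, 92 genes were higher and 39 lower. Without the floor there were 95 higher and 120 lower, which turns the excess of higher genes. With both the DMSO and the DAPT level required to reach 5.54, a setting chosen after the data had been seen, 51 were higher and 24 lower, and the share with DMSO apart was 28.0%.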

How the data were processed

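Total RNA from 6 Beko cultures was labelled with biotin and hybridised to 1 Affymetrix array per condition. The authors deposited log2 expression values made with RMA, per the submitters' processing notes, with no version. RMA corrects background, sets the arrays' probe distributions equal and summarises probes, so a change in total RNA per cell would be absorbed. The sources used here do not state the array model, the annotation release or the genome build. The values ran from 1.51 to 14.0 with 0 missing.

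Differences were treated minus vehicle. The floor of 5.54 is the median over all genes of the mean level. Values were processed with Python 3.11.15 and pandas 2.3.3, and renormalized with limma 3.58.1 in R 4.3.3. The selection was run on simulated data with differences planted in genes well above the floor, small noise and no difference between lines. That run checks the procedure only, and does not show how reliably genes were picked in these data. No statistical test was run, because each group has 1 array, whose number limits the precision. The members, gene lists and sizes were chosen with earlier results of these data known. Gene lists, promoter motifs, markers and the naming rule needed symbols and could not be used. The selection was repeated with each pair centred on its median, after cyclic loess or another quantile normalization, and with other floors and other sizes for the DAPT and DNMAML-ER differences.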

Additional observations from a re-analysis of the deposited data

Results flagged for a closer look

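In 2 of the 4 genes printed by ID, the OHT difference had opposite signs in the fusion lines, each with 1 array per condition, so this contrast between lines was not tested. For ENSMUSG00000072929 it was 0.27 with DNMAML-ER and -0.35 with Notch1-ER, a difference of -0.62. For ENSMUSG00000091326 it was 0.16 and -1.52, a difference of -1.68. The rule itself kept the DNMAML-ER values under 0.3 in size.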

How the results depend on the processing

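No paired analysis was possible because each group has 1 array and no result comes from a test. With no replicates, a median was taken as moved at 0.1 or more and a count at more than 1.5 times. After a second quantile normalization the median place was 0.14 in higher and 0.63 in lower genes, and after cyclic loess it was 0.19 in higher genes. Without the floor there were 215 genes, 120 of them lower, with DAPT extreme in 159, DMSO apart in 70, a Notch1-ER difference of 0.5 in 38 and a median place of 0.57 in lower genes. With a DAPT size of 1 there were 55 genes, 34 higher and 21 lower, DAPT extreme in 42, DAPT apart in 29, DMSO apart in 19, a Notch1-ER difference of 0.5 in 12 and a place of 0.59 in lower genes. With DNMAML-ER under 0.2 there were 72, 41 higher and 31 lower, DAPT extreme in 49, DAPT apart in 30 and a place of 0.59 in lower genes. With both DAPT-pair levels past the floor there were 75, 24 of them lower, DAPT extreme in 53, DAPT apart in 37, DMSO apart in 21, a Notch1-ER difference of 0.5 in 15 and a median Notch1-ER difference of -0.21 in lower genes. These last 4 settings change the counts by admitting more or fewer genes; the cause of the moved places was not tested. Among the 4 genes printed by ID, 1 of 24 recomputed differences moved by 0.1 or more, and no DAPT difference changed sign. ENSMUSG00000072929 nevertheless left the set after the second quantile normalization, with a DNMAML-ER difference of 0.301.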
